A study of Mus musculus with 8 samples.

Results

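Hematopoietic cluster cells that expressed a Ly6a reporter were compared with endothelial cells that expressed the same reporter, both sorted from mouse embryos at E10.5. The comparison took the 2 arrays labelled as GFP+ hematopoietic cells and the 2 labelled as GFP+ endothelial cells, 4 of the 8 arrays of the study, and asks how the budding cells differ from the vessel wall within the reporter-positive compartment. All embryos came from (C57BL/6 x 129S1/SVImJ)F1 females mated with Tg(Ly6a-GFP) males, so the reporter came from the father in every group. In this transgene Ly6a regulatory sequence drives green fluorescent protein (GFP). The labels give the sex as male. Tissue from 100 embryos was pooled, namely the aorta with the gonad and mesonephros around it (AGM region) and the vitelline and umbilical arteries. GFP+ cluster cells were 30000 cells carrying CD31, VE-cadherin, ESAM, Kit and GFP, and GFP+ endothelial cells were 70000 cells with CD31, VE-cadherin, ESAM and GFP but no Kit. The other sorted groups, 130000 GFP- cluster cells and 300000 GFP- endothelial cells with the same surface markers, are used below only as a second class comparison. Each group's RNA was divided in 2, and each part was amplified, labelled with Cy3 and hybridised on its own array. The 2 arrays of a group are thus parts of a single pool of RNA, and every p-value here measures the technical spread between such fractions, not the variation between sorts or litters.

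At mid-gestation some endothelial cells of the large arteries, called hemogenic endothelium, lose their place in the vessel wall, round up and become blood cells. This endothelial-to-hematopoietic transition depends on the transcription factor Runx1, and its products collect as clusters attached to the arterial lining. Ly6a encodes Sca-1, a surface antigen of adult mouse stem cells, and Ly6a reporters label hemogenic endothelium and the cluster cells that hold the first transplantable stem cells. Kit, the receptor for stem cell factor, separates cluster cells from the underlying endothelium.

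Promoter sequence is shown first for 4 genes that carry the contrast, because blood genes and arterial genes moved as groups and their start regions can be read side by side. Mpo encodes the myeloperoxidase of myeloid granules, Spn the sialoprotein CD43 of the blood cell surface, and Vav1 a blood cell exchange factor for small GTPases. Hey2 encodes a Notch-induced repressor of arterial endothelium. Each run below goes from 250 bases before the RefSeq start to 10 bases after it, on the strand of the gene, from the RefSeq promoter table of GRCm38.p6. The capitals mark matches on either strand to GGAAGT, a core read by ETS factors, in the 3 blood genes (starting at -222, -23 and -9 from the RefSeq start) and to GTGGGAA, the core read by the Notch effector RBPJ, in Hey2.
Mpo, chr11:87793534-87793793, plus strand: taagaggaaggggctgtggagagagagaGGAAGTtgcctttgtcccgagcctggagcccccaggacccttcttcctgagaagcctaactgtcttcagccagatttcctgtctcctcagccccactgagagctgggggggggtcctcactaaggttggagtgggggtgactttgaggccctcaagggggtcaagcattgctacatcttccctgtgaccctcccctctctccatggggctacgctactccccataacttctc
Spn, chr7:127137814-127138073, minus strand: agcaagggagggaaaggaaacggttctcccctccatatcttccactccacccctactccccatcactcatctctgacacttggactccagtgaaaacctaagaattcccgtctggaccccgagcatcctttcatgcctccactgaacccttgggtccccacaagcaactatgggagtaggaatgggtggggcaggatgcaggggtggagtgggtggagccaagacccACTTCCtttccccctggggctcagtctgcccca
Vav1, chr17:57278850-57279109, plus strand: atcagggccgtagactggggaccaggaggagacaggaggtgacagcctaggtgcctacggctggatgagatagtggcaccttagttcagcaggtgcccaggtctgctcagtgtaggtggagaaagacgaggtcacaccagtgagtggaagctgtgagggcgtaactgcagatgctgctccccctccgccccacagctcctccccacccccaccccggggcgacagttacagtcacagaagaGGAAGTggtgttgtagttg
Hey2, chr10:30842774-30843033, minus strand: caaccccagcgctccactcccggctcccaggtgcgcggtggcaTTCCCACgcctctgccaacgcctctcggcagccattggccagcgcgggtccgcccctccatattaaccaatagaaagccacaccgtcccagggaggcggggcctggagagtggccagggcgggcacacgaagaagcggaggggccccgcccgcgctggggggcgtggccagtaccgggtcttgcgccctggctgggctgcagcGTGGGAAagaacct
The whole table was searched over 250 bases before to 50 bases after each start. GGAAGT was in 28.8% of the 1033 promoters of 818 matched genes at least 2-fold higher in GFP+ cluster cells, in 15.8% of the 330 promoters of 273 matched genes at least 2-fold lower, in 26.8% of the 14809 promoters of the genes tested and in 23.8% of all 32851 promoters. Among the lists it was in 19 of 37 promoters (51.4%) of general blood cell genes, in 5 of 43 (11.6%) of hematopoietic transcription factor genes, in 8 of 30 (26.7%) of general endothelial genes and in 1 of 32 (3.12%) of arterial and Notch genes, so the blood lists did not share it alike. GTGGGAA was in 6.97% of the promoters of the higher genes, 10% of the lower, 6.14% of those tested and 6.38% of all, and in 3 of 32 (9.38%) of the arterial list. The RUNX cores TGTGGT or TGCGGT were in 24.9% of the higher, 18.2% of the lower, 20.8% of those tested and 22.4% of all. The GATA core AGATAA was in 10.9%, 8.48%, 7.06% and 11.2% of the same sets, and the SOX core ACAATG in 11%, 4.85%, 8.18% and 12.6%. Some genes have several promoters in the table, no 2 of these motifs contain each other, and a match is only the presence of these letters.

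Levels are log2 signals relative to the array's own 75th percentile, so 0 is that percentile and a difference of 1 is 2-fold. A gene is called where limma's moderated test over all 8 arrays, with the slide as a block, gave a Benjamini-Hochberg adjusted p under 0.05, and errors beside differences are standard errors of that fit with 2 arrays against 2. The 75th percentile signal was 1477 and 1181 on the GFP+ cluster arrays and 936 and 708 on the GFP+ endothelial arrays, and 55.4% and 59.7% of spots were well above background against 64.5% and 58.0%. Replicate 1 of every group lay on 1 slide and replicate 2 on the other, in a position on the slide that was the same for both arrays of a group, so position and cell class cannot be told apart. Genes of the sort antigens serve to check the labels. Kit (probe at chr5:76052394-76052453, mm9, as for all probe positions here) was at 2.87 on both GFP+ cluster arrays and at 1.28 and 1.36 on the endothelial arrays, a difference of 1.55 ± 0.044 (adjusted p = 0.000106). Ly6a itself was at -0.48 and -0.57 in cluster cells and at 0.37 and 0.42 in endothelial cells, 0.92 lower in cluster cells on the log2 scale (-0.92 ± 0.17). The genes of the other sort antigens, Cdh5 (-0.42), Pecam1 (-0.96) and Esam (-0.34), were also called lower in cluster cells, and all 3 stayed above the 75th percentile on every GFP+ array.

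The markers given with this comparison separated the 2 classes, which is no independent check of the labels. Mpo (chr11:87617840-87617899) was at 4.42 on both cluster arrays and at -0.59 and -0.41 on the endothelial arrays. It was 4.92 ± 0.058 higher in cluster cells, a 30.4-fold difference (adjusted p = 3.88e-05), and its second probe gave 4.50. Myb (chr10:20844736-20844795), which encodes a transcription factor of definitive blood progenitors, was at 3.19 and 3.12 in cluster cells and at -1.29 and -1.37 in endothelial cells, a difference of 4.49 ± 0.059. Tmem100 (chr11:89897263-89897322), a membrane protein gene induced by BMP9 and ALK1 signalling in endothelium, was at -1.66 and -1.71 in cluster cells and at 0.47 and 0.41 in endothelial cells, a difference of -2.13 ± 0.041. The arrays of the 2 classes did not overlap for any of the 3. Such separation is common with 2 arrays against 2, here and in later paragraphs. It also held for 34 of 40 cell cycle genes and 43 of 55 interferon response genes tested. Its share over all genes tested was not counted.

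**Figure D1:**
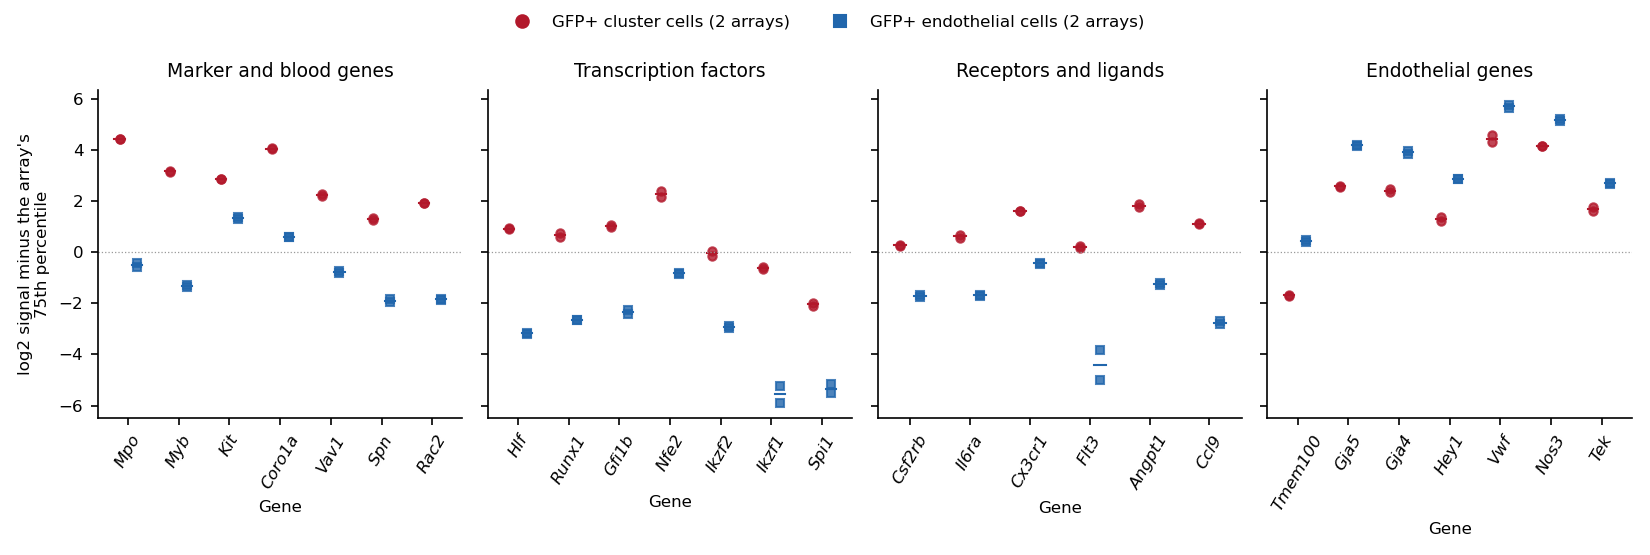
Log2 level (signal minus the array's 75th percentile) of 27 named genes on the 2 arrays of GFP+ cluster cells (red circles, left) and of GFP+ endothelial cells (blue squares, right), with a line at each mean and a dotted line at the 75th percentile. Blood genes, transcription factors and receptors lie higher in cluster cells, as for Mpo at 4.42 against -0.59 and -0.41, and the 7 endothelial genes lie lower.

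Of 19538 genes tested, 10784 (55.2%) were called between the classes, 5819 (29.8%) higher and 4965 (25.4%) lower in GFP+ cluster cells. All 10784 had the same sign on both slides, but the calls were made from those same slides, so this is no independent replication. Differences of at least 2-fold were fewer, 1983 genes (10.1%), and ran mostly one way: 1556 (7.96%) were higher and 427 (2.19%) lower. That imbalance depends on the scaling. With quantile normalization 907 genes were at least 2-fold higher and 690 lower, and with the values the authors normalized 911 and 692. With normexp background correction as planned 25 genes were called in all, on an array set in which 1 GFP- endothelial array had local background of up to 32268, and with that background capped 10049 were called, 431 at least 2-fold higher and 99 lower. It also sits among dim genes: of the 1556 higher genes 661 (42.5%) were well above background on all 4 GFP+ arrays, and of the 427 lower genes 213 (49.9%), against 84.8% of all genes tested. Among the 1556, 173 were not well above background on either GFP+ cluster array, so they were tested through another group. On the GFP+ endothelial arrays 435 were not well above background on either. Over all 19538 genes tested these numbers were 1228 and 553. Of the 1556, 568 carried a clone, predicted or accession name in place of a gene symbol. The median level of the 1556 was -3.63 in cluster cells and -5.21 in endothelial cells. The first genes named below are those well above background in both classes.

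**Figure D2:**
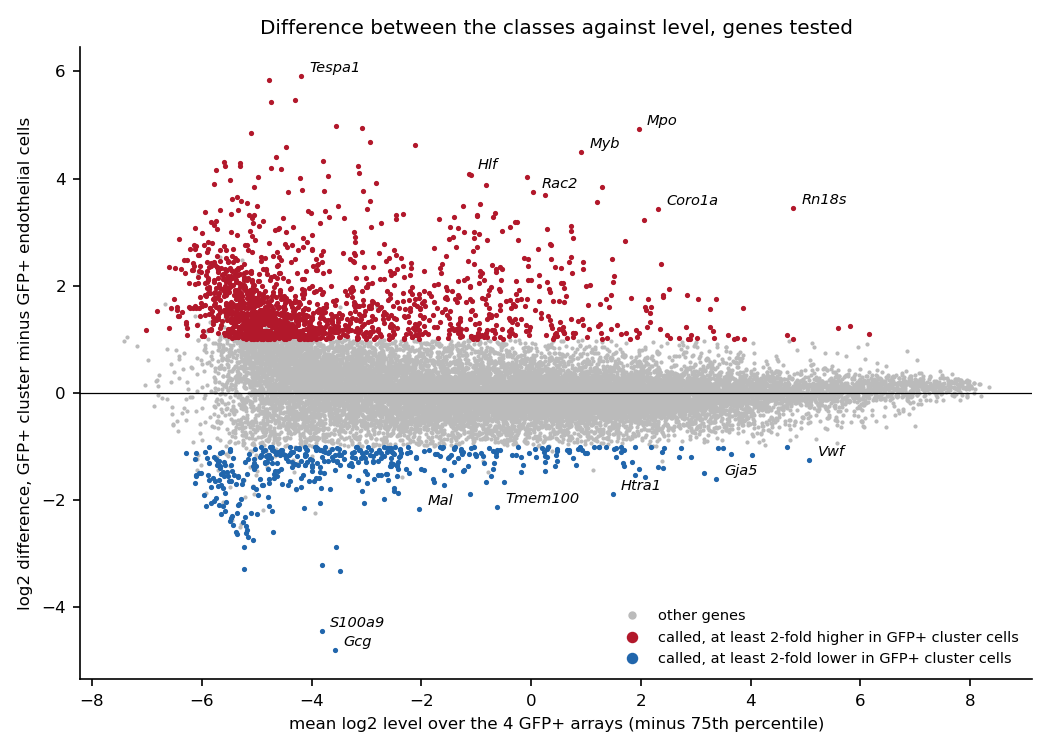
Log2 difference between GFP+ cluster and GFP+ endothelial cells against the mean log2 level over the 4 GFP+ arrays, for 19538 genes, with genes called and at least 2-fold higher (1556, red) or lower (427, blue). Many of the red points lie at the low end of the level axis, while Mpo, Myb and Coro1a lie apart at high level.

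After Mpo and Myb, the gene with the largest increase among those well above background in both classes was Hlf. Hlf, which encodes a leucine zipper factor expressed in stem cells, was at 0.89 and 0.94 in cluster cells and at -3.19 and -3.16 in endothelial cells, a difference of 4.09 ± 0.20. Rac2, the blood cell Rac GTPase, was at 1.91 and 1.93 against -1.86 and -1.81, 3.75 ± 0.040 higher. Coro1a, which encodes an actin-binding coronin of leukocytes, stood at 4.05 and 4.02 in cluster cells and at 0.60 on both endothelial arrays, 3.44 ± 0.056 higher. In all 3 the arrays of a class lay within 0.1 of each other and the classes were more than 3 apart. The chemokine gene Ccl9 (3.87), the proteinase 3 gene Prtn3 (3.77), the unconventional myosin gene Myo1g (3.69) and the GTPase-activating protein gene Arhgap4 (3.53) belonged to the same range. So did Wdfy4 (4.03), which acts in antigen presentation by dendritic cells, the tubulin gene Tuba8 (4.06), the anion transporter gene Slco4a1 (3.49) and Mctp1 (3.44). Ifitm1, which encodes an interferon-induced membrane protein, differed more between its own arrays, at 3.34 and 2.63 in cluster cells against -0.62 and -0.53 in endothelial cells (3.55 ± 0.21). The 18S ribosomal RNA probe, Rn18s, also fell in this top group, at 7.06 and 5.95 in cluster cells against 3.12 and 2.99 in endothelial cells (3.45 ± 0.32, adjusted p = 0.00142). In GFP- cells it was at 5.16 and 5.22 against 5.31 and 5.37, between the values of the 2 GFP+ classes. The part of ribosomal RNA carry-over in the class difference was not tested.

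The largest decreases among genes well above background in both classes were smaller. Mal, which encodes a lipid raft proteolipid, was at -3.21 and -3.04 in cluster cells and at -0.999 and -0.906 in endothelial cells (-2.17 ± 0.080). Htra1, a secreted serine protease gene, was at 0.53 and 0.55 against 2.42 and 2.46 (-1.89 ± 0.046), so it stayed above the 75th percentile in both classes. Plat, the tissue plasminogen activator gene, was at -3.38 and -3.34 against -1.45 and -1.54 (-1.86 ± 0.091). The 2 classes did not overlap for any of the 3. The glutamine transporter gene Slc38a5 (-1.89), the retinoic acid hydroxylase gene Cyp26a1 (-1.77), the fibulin gene Fbln5 (-1.66), the proprotein convertase gene Pcsk5 (-1.66) and the natriuretic peptide clearance receptor gene Npr3 (-1.65) followed. Tmem255b (-1.84) and Emp2 (-1.71) had a second probe with a smaller difference, -0.62 and -0.61. St8sia6 (-1.83), Syt15 (-1.68) and Nipal2 (-1.63) completed the set, with the albumin gene Alb (-1.98), which is taken up again with the liver genes below.

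Some genes were measured in only 1 class, 109 of them in the cluster cells alone and 341 in the endothelial cells alone, and there the difference is a bound. It sets the bright class's mean against the lowest level well above background, or the dim probe's own level where that is higher. In cluster cells Pstpip1, which encodes an adaptor of the actin cytoskeleton in blood cells, was at least 21.3-fold higher, with arrays at -1.11 and -1.03 against probes not well above background in endothelial cells. Tespa1, a thymocyte signalling gene, was at least 20.8-fold higher and Rab44, which encodes a large Rab GTPase, at least 13.6-fold. Rnase6 (8.98), Il21r (8.90), Syne3 (8.51), the formin gene Fmnl1 (7.85), Bex6 (7.63) and the myeloid progenitor gene Ms4a3 (7.07) had bounds of at least the fold given, and Bcl2l14 12.05-fold. In the other direction Gcg, which encodes proglucagon, was at least 11.5-fold lower in cluster cells, at -1.15 and -1.19 in endothelial cells. The alarmin gene S100a9 was at least 8.56-fold lower, the stefin genes Cstdc5 and Stfa1 at least 7.30-fold and 5.61-fold, and the mesenchymal homeobox gene Prrx1 at least 2.72-fold, though its second probe gave a log2 difference of -0.46. Spaca3 (3.09), Ptchd1 (3.04), Frmd3 (2.91), the chromogranin gene Chgb (2.61) and Nxnl2 (2.59) were lower by at least the fold given.

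General blood cell genes were higher almost throughout. Of the 39 on the general list, 34 were called higher, 1 lower and 4 were not called, with a median of 1.90 against 0.03 over all genes tested, where 29.8% were called higher. Vav1 was at 2.18 and 2.29 in cluster cells and at -0.80 and -0.75 in endothelial cells (3.01 ± 0.043). Spn was at 1.34 and 1.26 against -1.85 and -1.94 (3.19 ± 0.042). Ptprc, the gene of the pan-leukocyte phosphatase CD45, was at -1.41 and -1.17 against -4.15 and -3.97 (2.77 ± 0.051), so it was a low signal even in cluster cells. Nckap1l (2.85) and Was (2.78), which drive branched actin assembly in blood cells, were higher to a like degree, and Dock2 (3.49), an activator of Rac, was well above background on both cluster arrays but on 1 of the endothelial ones. The member that was lower, Cd93 (-0.55 ± 0.047), encodes a lectin-like receptor that endothelium also makes, at 5.52 and 5.57 in cluster cells and 6.05 and 6.15 in endothelial cells. Bulk arrays cannot separate more cells of a kind from more RNA per cell, here or in any later group.

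Of 38 transcription factor genes of blood formation tested, 27 were higher, 4 lower and 7 were not called (median 0.75). Over all genes tested 29.8% were higher and 25.4% lower. Runx1 (chr16:92605785-92605844) was at 0.74 and 0.60 in cluster cells and at -2.64 on both endothelial arrays, 3.31 ± 0.063 higher, and its other probe gave 3.64. Gfi1b, a repressor downstream of Runx1, was at 1.06 and 0.98 against -2.25 and -2.43 (3.36 ± 0.059). Spi1, the gene of the myeloid master factor PU.1, was at -2.12 and -1.97 against -5.15 and -5.52 (3.29 ± 0.24), with 1 of the endothelial arrays well above background. These 3 did not overlap between the classes. Ikzf1, which encodes the lymphoid regulator Ikaros, was at -0.65 and -0.58 against -5.22 and -5.90 (4.94 ± 0.20), and it too was well above background on 1 endothelial array. Its relative Ikzf2 was 2.88 higher and Nfe2, a factor of megakaryocytes and red cells, 3.11 higher. Running the other way were Gata3 (-0.69), which acts in T cells and in the tissue around the aorta, Prdm16 (-0.58), a stem cell and arterial factor, and the cofactors Ldb1 (-0.41) and Cbfb (-0.27). Cbfb encodes the binding partner of Runx1.

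Of 29 stem cell genes tested, 12 (41.4%) were higher and 11 (37.9%) lower (median 0.07), against 29.8% and 25.4% of all genes tested. The higher ones included Hlf, Angpt1 and Evi2a (2.70), with Gcnt2 (1.82), the homeobox gene Meis1 (1.08) and the RNA-binding protein gene Msi2 (0.96). Tek, which encodes the angiopoietin receptor of endothelium and stem cells, was at 1.61 and 1.75 in cluster cells and at 2.69 and 2.68 in endothelial cells (-1.01 ± 0.065). Its ligand gene Angpt1 (chr15:42256335-42256394) ran the opposite way, at 1.88 and 1.76 in cluster cells and -1.22 and -1.27 in endothelial cells (3.06 ± 0.043).

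Receptors for cytokines and chemokines were higher in 18 of 25 members tested and lower in 4, against 29.8% and 25.4% of all genes tested, with a median of 1.35. Cx3cr1, the fractalkine receptor gene, was at 1.61 on both cluster arrays against -0.46 and -0.42 (2.05 ± 0.073). Flt3, a receptor gene of early lymphoid and myeloid progenitors, was at 0.24 and 0.16 against -3.83 and -5.01, and only 1 of those endothelial arrays was well above background (4.62 ± 0.55). The classes were apart for both, with the wider spread in Flt3. The interleukin receptor genes Il6ra (2.31) and Il17ra (3.36) and the common beta chain gene Csf2rb (1.97, and 1.12 by its weakest probe) were higher too, and the neutrophil chemokine receptor gene Cxcr2 was at least 5.04-fold higher. The 4 lower members were Cxcr4 (-0.94), the CXCL12 receptor gene that arteries also express, the interleukin 1 receptor gene Il1r1 (-0.80), the common gamma chain gene Il2rg (-0.75) and the shared signal transducer gene Il6st (-0.68).

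Of 19 granule protein genes tested, 8 (42.1%) were higher, 3 (15.8%) lower and 8 were not called, against 29.8% higher and 25.4% lower over all genes tested. Besides Mpo and Prtn3, Serpinb1a, which encodes an inhibitor of neutrophil proteases, was 2.97 ± 0.049 higher. The eosinophil major basic protein gene Prg2 was at least 4.51-fold and the cystatin gene Cst7 at least 4.38-fold higher. The alarmin genes S100a9 and S100a8 were lower in cluster cells, S100a8 by at least 2.15-fold, and the chaperone gene Calr was lower by 0.18 on the log2 scale (-0.18).

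Endothelial genes were lower in cluster cells but stayed well above background. All 45 genes of the general endothelial list were tested and well above background in both classes. Of these, 38 were lower, 1 was higher and 6 were not called, against 25.4% called lower over all genes, with a median of -0.61. At least 2-fold lower were 7, against 2.19% of all genes tested. Vwf (chr6:125636551-125636610), which encodes von Willebrand factor, was at 4.31 and 4.57 in cluster cells and 5.63 and 5.76 in endothelial cells (-1.26 ± 0.071). Nos3, the endothelial nitric oxide synthase gene, was at 4.15 on both cluster arrays and at 5.15 and 5.19 on the endothelial ones (-1.02 ± 0.042). Both therefore stayed among the bright genes of cluster cells while being called lower. Palmd (-1.32), the apelin gene Apln (-1.10), its receptor gene Aplnr (-0.99) and the endomucin gene Emcn (-1.02) were lower by a like amount. Erg, an ETS factor gene, was the member that ran against the list, at 0.18 and 0.05 in cluster cells against -0.94 and -0.81 (0.99 ± 0.080), with 0.38 by its weakest probe.

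Arterial and Notch pathway genes had the lowest median of the 32 lists, -0.86, with 28 of 35 lower, 15 of them by at least 2-fold, and 2 higher. Among all genes tested 25.4% were lower, 2.19% by at least 2-fold, and 29.8% higher. Ligands on the endothelial surface activate Notch receptors in neighbouring cells, whose cleaved domain joins RBPJ to induce repressors of the Hey family. The connexin genes Gja5 (chr3:96857349-96857408) and Gja4, which build arterial gap junctions, were at 2.59 and 2.55 in cluster cells against 4.15 and 4.19 in endothelial cells (-1.60 ± 0.057), and at 2.36 and 2.45 against 3.85 and 3.95 (-1.49 ± 0.055). The second probe of Gja5 gave -0.36. Hey1 was at 1.36 and 1.22 against 2.86 and 2.85 (-1.56 ± 0.068), and Hey2, whose promoter is shown above, at -4.76 and -4.35 against -2.67 and -2.85 (-1.80 ± 0.35), with 1 cluster array well above background. For these 4 genes each class kept to its own range. The tetraspanin-like gene Tm4sf1 (-1.53) and the guidance genes Sema3g (-1.40) and Unc5b (-1.39) were lower as well. The receptor genes Notch2 (0.44, and 1.75 by another probe) and Notch1 (0.43 by its brightest probe and -1.05 by the other) were called higher, so the direction of Notch1 rests on the choice of probe. Of 17 venous and lymphatic genes tested, 9 were lower and 2 higher (median -0.20), among them Foxc2 (-1.01), the semaphorin co-receptor gene Nrp2 (-0.67), the venous nuclear receptor gene Nr2f2 (-0.57) and the ephrin receptor gene Ephb4 (-0.43) on the lower side, with Tll1 at -0.64 by its brightest probe and 0.24 by the other. The 2 higher members, Maf (0.67) and Mrc1 (0.41), are also macrophage genes.

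Junctions, caveolae and clotting control belong to the structure and surface of the vessel wall. Their counts stand beside 25.4% called lower and 29.8% called higher over all genes tested. Of 30 junction genes, 24 were lower and 1 higher (median -0.39), the tight junction genes Cldn5 (-0.85), Jam2 (-0.81), F11r (-0.73) and Tjp1 (-0.66) and the N-cadherin gene Cdh2 (-0.74) among the lower ones, while the adaptor gene Afdn was 0.42 higher. Of 10 caveolae genes, 9 were lower and 1 was not called (median -0.67), with Plvap at 5.11 on both cluster arrays against 5.98 and 6.12 (-0.94 ± 0.064) and Cav2 at -0.94. Of 18 genes of endothelial hemostasis, 13 were lower and 5 were not called. Besides Plat and Vwf, the thrombomodulin gene Thbd was 0.79 lower on the log2 scale (-0.79). Of 20 flow-responsive genes, 13 were lower, including the endothelin gene Edn1 (-0.98) and the shear-induced factor gene Klf4 (-0.77), and 2 were higher, the coactivator gene Cited2 (1.74 ± 0.052) and the calcium channel gene Trpv4 (0.59). Hmox1, at -0.68 by its brightest probe, had another at 0.04.

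The matrix list had the most members at least 2-fold lower after the arterial list, 12 of 46, against 2.19% of all genes tested. In all, 40 of its genes were lower and 1 higher (median -0.76), against 25.4% and 29.8% of all genes tested. Col4a2, a collagen chain of basement membranes, was at 3.03 and 3.13 in cluster cells against 4.20 and 4.23 in endothelial cells (-1.13 ± 0.058). Fbn1, which encodes the microfibril protein fibrillin, was at 0.07 and 0.22 against 1.45 and 1.50 (-1.34 ± 0.067). Both were below the endothelial range on each array. Mfap5 (-1.53), the latent TGF-beta binding protein gene Ltbp4 (-1.43), Fbln2 (-1.35) and Col5a2 (-1.20) were lower, and the calcification inhibitor gene Mgp was at least 1.77-fold lower. The elastin gene Eln (0.29) was the higher member, but with quantile normalization its value was -0.02. Of 18 integrin genes 7 (38.9%) were higher and 8 (44.4%) lower. The higher ones included Itga4 (2.31 ± 0.061), which pairs into the VCAM1 receptor of blood progenitors, Itgb2 (1.44) and Itgal (1.05) of leukocytes, and Itgb3 (1.37) and Itga2b (0.76) of platelets and early progenitors. The lower ones included the fibronectin receptor gene Itga5 (-0.80) and the laminin receptor genes Itga3 (-0.70) and Itgb4 (-0.86). Among 13 regulators of mesenchymal transition, 10 were lower, with Mmp2 at -1.10, Snai1 at -0.78 and Zeb1 at -0.68, and 2 were higher, S100a4 (1.06) and Zeb2 (0.24 by its brightest probe and -0.41 by the other).

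VEGF and angiopoietins act through receptors on endothelium, and BMP and TGF-beta ligands through paired receptor kinases. Of 28 genes of VEGF, angiopoietin and vasoactive signalling, 20 were lower and 2, Angpt1 and the hepatocyte growth factor gene Hgf (0.92), were higher (median -0.53). Across all genes tested 25.4% were lower and 29.8% higher. The endothelin B receptor gene Ednrb was at 0.94 and 0.97 in cluster cells against 2.14 and 2.16 (-1.19 ± 0.042), and the VEGF co-receptor gene Nrp1 was 0.95 lower on the log2 scale (-0.95). Of 33 genes of BMP and TGF-beta signalling, 22 were lower and 1 higher (median -0.44). The lower ones included the ligand genes Bmp6 and Tgfb2 (-0.95 each), the receptor gene Acvrl1 (-0.83), which encodes ALK1, the extracellular modulators Bmper (-0.83) and Fst (-0.82), and the target gene Id3 (-0.91). The BMP antagonist gene Nog was the higher member (1.44 ± 0.20), at -2.59 and -3.17 in cluster cells against -3.87 and -4.77, and 1 of those endothelial arrays was well above background.

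Hox genes, which give cells their position along the body axis, were lower in 18 (62.1%) and higher in 5 (17.2%) of 29 tested (median -0.39). All genes tested were lower in 25.4% and higher in 29.8%. All 5 higher genes lay in the Hoxa cluster: Hoxa6 (1.52), Hoxa7 (1.02), Hoxa9 (0.84), Hoxa13 (0.82) and Hoxa10 (0.54). Hoxa7 was at 1.89 and 1.73 in cluster cells against 0.84 and 0.74 in endothelial cells. Hoxa9, a factor of blood progenitors, was at -1.21 and -1.10 against -2.01 and -1.98. Hoxa13 was well above background on 1 array of each class. Grouped after their values were seen, the 6 tested genes from Hoxa6 to Hoxa13 had a median of 0.83, with 5 higher and 1 not called, and the other 23 Hox genes a median of -0.50, with 18 lower and 5 not called. The lower genes included Hoxa2 (-0.86), Hoxb7 (-0.76), Hoxc9 (-0.97) and Hoxc5, which was at least 2.03-fold lower.

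**Figure D3:**
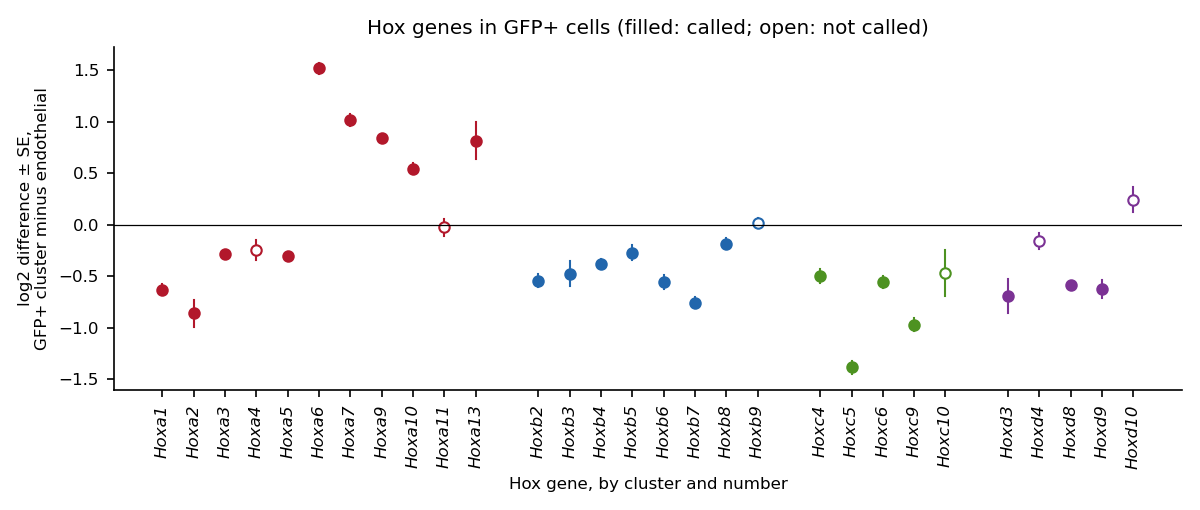
Log2 difference between GFP+ cluster and GFP+ endothelial cells, with its standard error, for the 29 Hox genes tested, ordered by cluster and number and coloured by cluster. Filled points were called and open ones were not, and the 5 called higher all lie between Hoxa6 and Hoxa13.

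Of 55 interferon response genes, 26 (47.3%) were higher and 11 (20%) lower (median 0.23), against 29.8% and 25.4% of all genes tested, the higher ones including Ifitm1, Ifi204 (1.79), the immunoproteasome genes Psmb8 (1.73) and Psmb9 (1.57), Ly6e (1.71), and the oligoadenylate synthetase genes Oas1a (1.47) and Oas2 (1.48), with 1 endothelial array well above background for Oas2 and for Ifi203 (1.89). Of 21 genes of interferon receptors and JAK-STAT signalling, 8 were higher, with Stat4 (1.65), Irf5 (1.63), the DNA sensor gene Cgas (1.42) and Stat5a (1.17), and 6 lower, with the kinase genes Tyk2 (-0.53) and Jak3 (-0.42). Of 45 genes of TNF, NF-kB and Toll-like receptor signalling, 18 (40%) were higher and 8 (17.8%) lower (median 0.07). The negative regulator gene Irak3 was at -2.02 and -1.82 in cluster cells against -4.46 and -4.59 (2.61 ± 0.14) and the chemokine gene Ccl2 at -0.92 and -0.91 against -2.74 and -2.71 (1.81 ± 0.042). Tlr1 (1.66), Tlr7 (1.47), Ptgs2 (1.50) and Tnfrsf1b (1.33) were also higher, and Cd40 (-1.12) and Tlr3, at least 1.79-fold, were lower. The median of all genes tested was 0.03.

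Of 40 cell cycle genes, 11 (27.5%) were higher, 7 (17.5%) lower and 22 not called, shares no higher than the 29.8% and 25.4% over all genes tested. No member differed 2-fold: the cyclin gene Ccnd1 was at 2.64 and 2.59 in cluster cells against 3.15 and 3.10 (-0.51 ± 0.040), Top2a at -0.27, Kif11 at 0.32 and Aurka at 0.26. This count depends on the arrays used, since it fell to between 2 and 9 higher with any 1 array left out. Of 26 genes of ribosome biogenesis, 15 were higher and 1 lower (median 0.21), the higher ones including Wdr12 (0.67), Gar1 (0.55), the fibrillarin gene Fbl (0.52) and Nolc1 (0.50), and Pes1 was at -0.31 by its brightest probe and 0.21 by the other. Of 24 genes of glycolysis and glucose uptake, 6 (25%) were higher and 5 (20.8%) lower, again not above the shares over all genes. Called members included the hexokinase genes Hk3 (1.50) and Hk2 (0.92) and the glucose transporter gene Slc2a3 (0.55) on the higher side and the pyruvate kinase gene Pkm (-0.56) and Pgk1 (-0.33) on the lower.

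**Figure D4:**
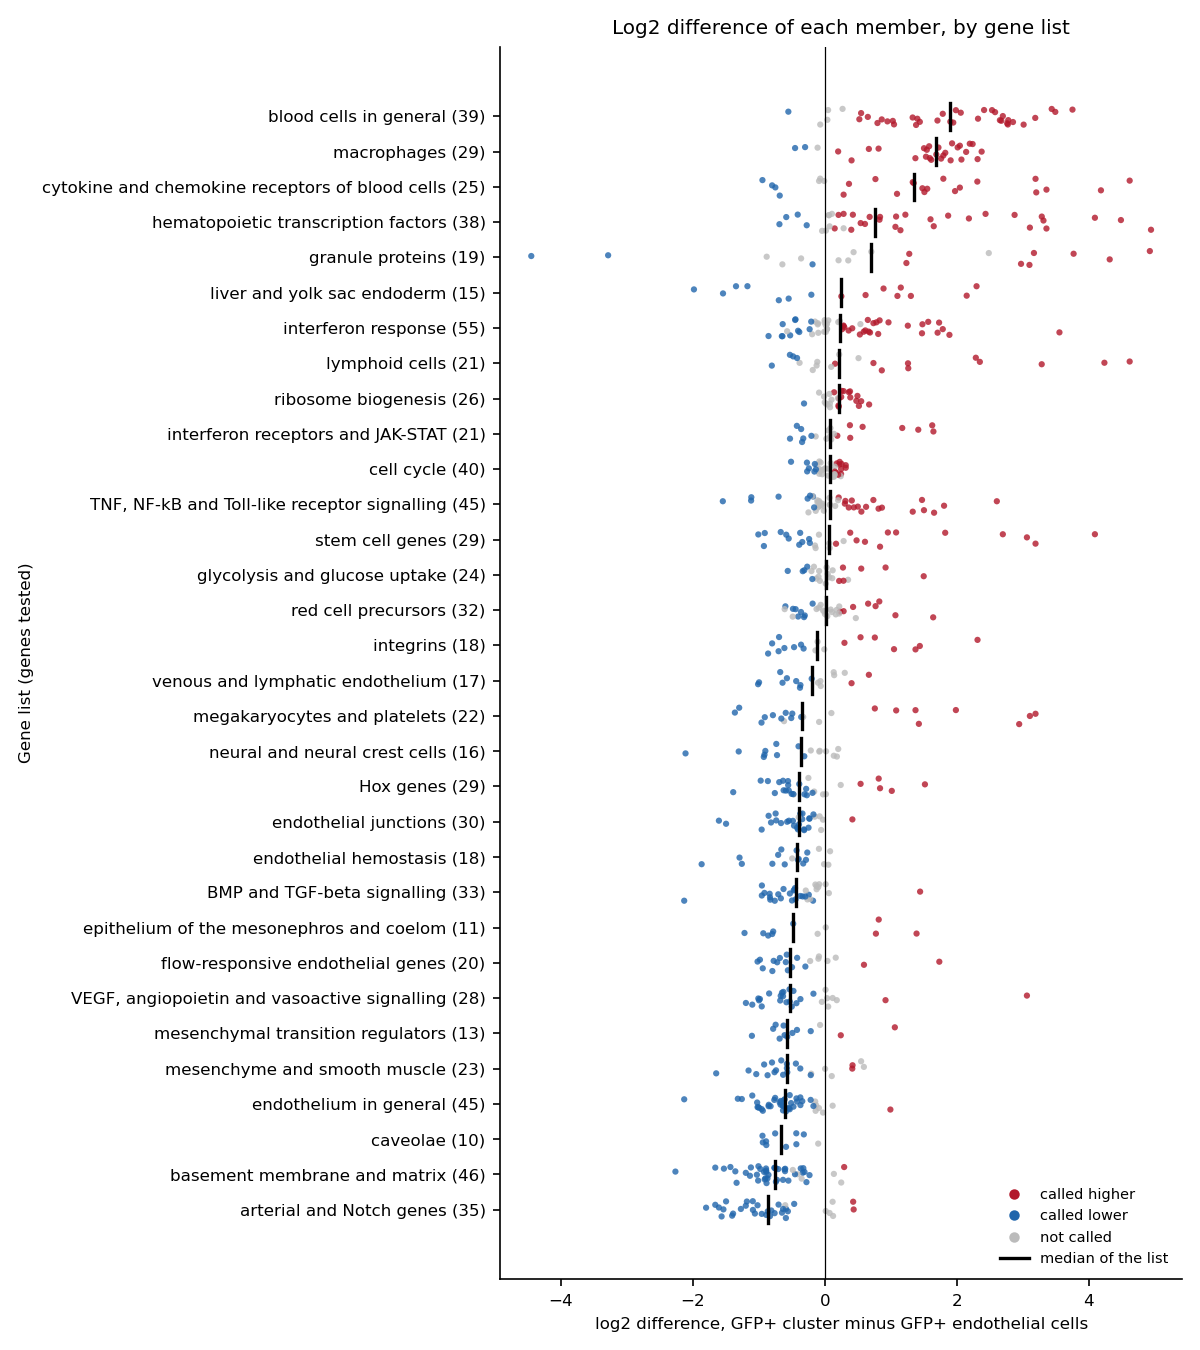
Log2 difference between GFP+ cluster and GFP+ endothelial cells of each gene tested in 32 lists, ordered by the list's median (black bar), with the number tested in parentheses. Red points were called higher, blue lower and grey were not called. The 5 lists at the top are general blood, macrophage, receptor, transcription factor and granule genes, with medians from 0.71 to 1.90, while stem cell, lymphoid, red cell and megakaryocyte genes lie between -0.34 and 0.22, and the arterial list lies at the bottom at -0.86.

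Markers of other cells that the sort could hold were read in both classes, with the summed level of a list in multiples of the array's 75th percentile signal. The counts below stand beside 29.8% called higher and 25.4% called lower over all genes tested. Macrophage genes were higher in 26 of 29 and lower in 2, and their sum was 60.9 and 62.0 on the cluster arrays against 30.7 and 31.6 on the endothelial ones. Trem2 was at 0.27 and 0.18 against -2.04 and -1.99 (2.24 ± 0.062), and the lysozyme gene Lyz2 (2.38), the complement gene C1qc (2.20), Timd4 (2.14), Fcer1g (2.07), Tyrobp (2.01) and Msr1 (2.32) were alike, while Hpgd (-0.45) was lower. Cd163, Cybb, Fcgr2b and Vsig4 were too dim to test. The part of macrophages in the higher blood genes was not tested. Lymphoid genes were higher in 10 of 21 (47.6%) and lower in 4 (19%), with sums of 41.9 and 36.6 against 35.9 and 37.8. The lowest value of that list was -0.80. Btk was 3.29 ± 0.057 higher, Ltb 2.35 and Cd27 2.29, and Rag1, Rag2, Pax5, Cd79a, Cd3g and Il7r were too dim to test. Megakaryocyte and platelet genes split, 8 higher (36.4%) and 10 lower (45.5%) of 22, with sums of 64.2 and 60.6 against 71.8 and 69.8. The surface selectin gene Selp (2.95) and Plek (1.99) were higher, and the secreted platelet genes Ppbp (-1.36) and Thbs1 (-1.30) lower.

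Mesenchymal and smooth muscle genes were lower in 16 of 23 and higher in 2, with sums of 35.7 and 36.1 in cluster cells against 41.0 and 41.8 in endothelial cells, and Lum (-1.15), Gata6 (-1.04) and Pdgfra (-0.87) among the lower ones. The shares over all genes tested, 25.4% lower and 29.8% higher, apply to this and the next lists too. Neural genes were lower in 9 of 16 (sums 7.72 and 7.84 against 13.7 and 14.0), led by Stmn2 (-1.30) and Ncam1 (-0.92), while Sox2 and Pax6 were too dim to test. Epithelial genes were lower in 6 of 11 (54.5%) and higher in 3 (27.3%), with sums of 8.16 and 8.06 against 6.36 and 6.44. Krt19 was at -1.22, Wt1 at -0.78 and Lhx1 at 1.39, and Epcam and Pax8 were too dim to test. Liver and yolk sac genes went both ways in 15 of 15, 8 higher and 7 lower, with sums of 17.4 and 17.2 against 15.9 and 16.4. Apob was at -2.83 and -2.72 against -5.12 and -5.03 (2.30) and Apoa1 was 1.15 higher, while Alb was at -3.87 and -3.48 against -1.69 and -1.70 (-1.98 ± 0.10) and Ambp (-1.54) and Fgb (-1.34) were lower. The part of mesenchymal and neural cells in the lower matrix and Hox genes was not tested.

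The same class difference was read in GFP- cells, which share no array with the GFP+ comparison, and the difference of the 2 differences was tested as an interaction. Both come from the fit of all 8 arrays, so their calls share each gene's estimate of spread and are not independent. Among GFP- cells 5235 genes (26.8%) were called, 2585 higher (13.2%) and 2650 lower (13.6%) in cluster cells, and 427 were at least 2-fold different, 362 higher (1.85%) and 65 lower (0.333%). Of those 362 genes 306 (84.5%) were also called higher among GFP+ cells, against 29.8% of all genes tested. Of the 1556 genes at least 2-fold higher in GFP+ cluster cells 557 (35.8%) were called higher among GFP- cells, against 13.2% of all. The interaction called 7094 genes (36.3%), 3788 with a more positive and 3306 with a more negative difference among GFP+ cells (19.4% and 16.9%), of which 922 (4.72%) and 337 (1.72%) differed at least 2-fold. The GFP- count rests on each of its arrays: it was 638 and 565 without replicate 1 or 2 of the GFP- cluster cells and 1300 and 1276 without replicate 1 or 2 of the GFP- endothelial cells. The interaction count fell to between 2445 and 4540 without any 1 of the 8 arrays. Mpo differed by 4.92 among GFP+ and 2.88 among GFP- cells (interaction 2.05 ± 0.082, adjusted p = 0.00308), and Coro1a by 3.44 and 1.70 (1.74 ± 0.080). The median of the general blood list was 1.90 among GFP+ and 0.70 among GFP- cells, and that of the arterial list -0.86 and -0.46. Gja5, by contrast, differed by -1.60 and -1.44, and its interaction was not called (adjusted p = 0.175).

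Red cell genes differed between the classes among GFP- cells more often than among GFP+ cells. Among GFP+ cells 8 of 32 (25%) were higher, 8 (25%) lower and 16 not called, with a median of 0.02. These shares were no higher than the 29.8% and 25.4% over all genes tested. Among GFP- cells 29 were higher and 0 lower with a median of 1.10, against 13.2% and 13.6% of all genes tested. The interaction was negative and called in 25 of the 32, against 16.9% of all genes tested. Slc4a1, the anion exchanger gene of the red cell membrane, was at -0.19 and -0.18 in GFP+ cluster cells, against -0.85 and -0.83 in GFP+ endothelial cells (0.66 ± 0.057), but at 3.97 and 3.96 in GFP- cluster cells and at 2.03 and 1.89 in GFP- endothelial cells (2.00). The alpha globin gene Hba-a1 was 0.48 lower on the log2 scale in GFP+ cluster cells (-0.48) and 0.94 higher in GFP- ones, and its probe may also read its near-identical copy. Gata1, the red cell and megakaryocyte factor, differed by 1.07 and 1.17, and Car2 was 1.64 higher in GFP+ cluster cells. Summed over the list, the level was 179.7 and 180.3 in GFP+ cluster cells against 189.8 and 197.8 in GFP+ endothelial cells, and Epb42 and Ank1 were not well above background in either. Of the 32, 5 were not well above background on either GFP+ cluster array, and 2 on either GFP+ endothelial array.

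**Figure D5:**
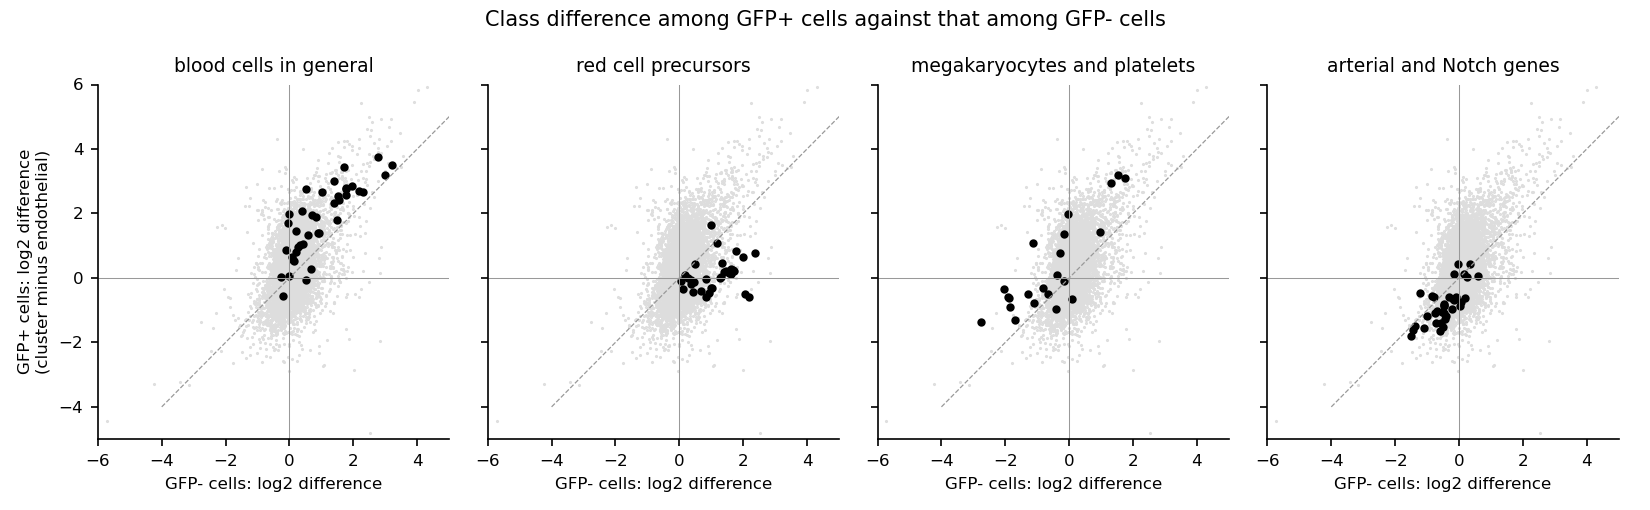
Log2 difference between cluster and endothelial cells among GFP+ cells (vertical) against that among GFP- cells (horizontal), for all genes tested (grey) and for 4 lists (black), with a dashed line where the 2 are equal. Blood genes lie mostly above the line, while red cell genes lie near 0 among GFP+ cells and to the right among GFP- cells, with medians of 0.02 and 1.10.

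Several other genes ran in opposite directions in the 2 comparisons. Opposite signs were common, in 7409 of all 19538 genes tested. In 1436 the difference among GFP- cells was called with the sign opposite to that among GFP+ cells. Slc38a5 was at -2.04 and -2.08 in GFP+ cluster cells against -0.21 and -0.14 in GFP+ endothelial cells (-1.89), and 1.87 higher in GFP- cluster cells. Edn1 differed by -0.98 among GFP+ and 0.38 among GFP- cells and Klf4 by -0.77 and 0.47. Bmp6 differed by -0.95 and 0.64. Gcg, not well above background in GFP+ cluster cells, was at -1.66 and -1.61 in GFP- cluster cells against -4.22 and -4.10 in GFP- endothelial cells, so its higher class was the endothelial one among GFP+ cells and the cluster one among GFP- cells. In the Hox list, Hoxa7 differed by 1.02 and Hoxc9 by -0.97 among GFP+ cells, their values of 0.16 and 0.22 among GFP- cells were not called, and 18 of the 29 genes had a called negative and 3 a called positive interaction, against 16.9% and 19.4% of all genes tested.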

How the data were processed

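Labelled RNA of 4 sorted groups, 2 arrays each, was read on 8 one-colour Agilent mouse arrays. Per the file headers, Agilent Feature Extraction 10.10.1.1 made the deposited intensity values, which are background-subtracted signals not yet normalized between arrays. A second deposited file holds intensity values that the authors normalized and rounded, with a median of 198 on every array (35145 rows). How they normalized it is not given in the sources used. Groups come from the sample titles.

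Control spots (1377) were left out, leaving 43020 spots of 39429 probes. Of these probes, 10 were then left out because of outlier flags. The signal was scaled to each array's 75th percentile and taken to log2. The brightest probe stood for a gene, and a gene was tested where in some group that probe was well above background on each of its arrays. Names came from unversioned accessions in RefSeq GRCm38.p6 (26055 probes), from a symbol current there (3195) or from the file (10179). Of the genes tested, 4043 had several probes.

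limma 3.58.1 in R 4.3.3 fitted group means with the replicate number as a block over all 8 arrays (3 residual and 1.73 prior degrees of freedom). The headers place each replicate number on 1 slide, and replicate differences correlated between groups at r from 0.139 to 0.359. On simulated data with 50 of 19538 genes changed at each size, this fit called 34%, 66%, 86% and 98% of log2 changes of 0.5, 1, 2 and 3, with 6 false calls among 148. Far fewer genes were changed there than the 55.2% called in the data, and the noise was independent between arrays. These rates therefore do not give the error among the calls reported. The precision is limited by 2 arrays a group. Alternatives were background correction, normalization, the filter on dim probes, the probe rule, the block, the moderation, the arrays fitted, each array left out and the authors' table.

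Genes named are the 15 largest called differences each way among genes with a symbol and well above background in both GFP+ classes, the sort and marker genes, the 10 largest bounds in either direction, up to 8 called members of each of 32 lists with called members that run against the list where these are 5 or fewer, and the 10 largest interactions each way. List members too dim to be tested were named besides. The members and lists were chosen with earlier results of these data known. A few genes of these sets are not reported here.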

Additional observations from a re-analysis of the deposited data

Results flagged for a closer look

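The class difference among GFP+ cells (cluster minus endothelial, log2) was set against that among GFP- cells, and the genes here passed the test of the difference between the 2, limma's interaction over all 8 arrays with a Benjamini-Hochberg adjusted p under 0.05. A positive value means a more positive class difference among GFP+ cells. Among genes well above background on all 8 arrays, the largest positive values were those of Krtap19-4 (3.93), Rn18s (3.60), Spint2 (3.25), Cyp17a1 (3.13), Dvl3 (2.96), Fxyd1 (2.94), the leptin receptor gene Lepr (2.91), Rgs18 (2.64), Tuba8 (2.36) and Cyp2c37 (2.29). The largest negative ones included those of Slc38a5 (-3.75), Ano1 (-2.16), Wnk4 (-2.05), Abcg4 (-1.77), Atp1b2 (-1.70), Adra2b (-1.63), Clstn2 (-1.62), the red cell surface protein gene Kel (-1.59) and Bmp6 (-1.59). The value of Gcg (-7.33) comes from a probe not well above background in GFP+ cluster cells and is no bound.

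The other flagged genes are those described with the 2 comparisons. The interaction was 2.05 for Mpo, 1.74 for Coro1a and 0.85 for Hoxa7, and it was -1.34 for Slc4a1, -1.42 for Hba-a1, -1.36 for Edn1, -1.24 for Klf4 and -1.19 for Hoxc9. Since 36.3% of all genes tested had a called interaction, a call of this kind is common in these arrays.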

How the results depend on the processing

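The count of genes that differed between GFP+ cluster cells and GFP+ endothelial cells, 10784, stayed between 7697 and 11932 under the alternatives run, except at 25 with normexp background correction and at 1983 where at least 2-fold was asked besides. Normexp called 24 genes higher and 1 lower, all at least 2-fold (24 higher, 1 lower), with 2310 genes at an unadjusted p under 0.05. With the local background capped at a high percentile of each array, an alternative chosen after seeing the data, 10049 were called, 431 at least 2-fold higher and 99 lower. The genes at least 2-fold higher numbered 907 with quantile normalization, 911 with the authors' table, 3803 where dim probes were all kept and 625 with a stricter filter, and those lower 690, 692, 457 and 207. The share of 2-fold calls that were higher was 78.5% in the fit reported, 56.8% with quantile normalization and 89.3% with no filter.

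For GFP- cells, 5235 genes became 0 with normexp (limma, 1408 at an unadjusted p under 0.05), 887 with no filter, 2576 with only those arrays fitted and no replicate block, 2 choices changed together, 427 at 2-fold and 565 to 3954 with 1 array left out. For the interaction, 7094 became 0 with normexp (1547 unadjusted), 2751 with no filter, 1259 at 2-fold and 2445 to 4540 with 1 array left out. Without the replicate block 9840 genes were called among GFP+ cells, 9637 of them shared with the fit reported, 4742 among GFP- cells and 6085 in the interaction, and the block moved no such count by over 1.5 times.

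Single genes changed sign in 7 of 6276 values: Abcg4 (-0.059 with quantile normalization, -0.047 with the authors' table), Eln (-0.022 and -0.016 with the same 2), Atp1b2 (0.0029 within slide 2), and Notch1 (-0.31) and Zeb2 (-0.086) with all probes averaged. Of the 6276 values, 443 lost the gene's call and 3 gained one, with 306 of the losses under normexp background correction. All 28 flagged interactions also lost their call with normexp. The list medians kept their sign under all 20 settings in 26 of 32 lists, the exceptions being red cell, glycolysis, stem cell, lymphoid, TNF and liver genes. The cause of these changes was not tested. Among the tested genes 84.8% were well above background on all 4 GFP+ arrays. The part of dim signal in these changes was not tested either.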
